A study of Mus musculus with 4 samples.

Results

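Trim30a and Pck1 are 2 of the 11049 genes listed in all 3 library tables of a single-cell RNA study of hypertensive mouse kidney. They were selected on their measured values, because their levels set 1 hypertension library and 1 control library apart from the other pair, across the study's groups. Their levels and ratios are therefore a description, with no test. All mice were C57BL/6J, aged 10 to 14 weeks, and hypertension was angiotensin II-induced in 1 group (A2 HTN) and salt sensitive in another (SS HTN). The angiotensin II controls received saline and the salt-sensitive controls ate a normal diet. Kidneys of all mice in a group were pooled, and dissociated cells were selected with beads against CD31 and then against podoplanin, so each group is 1 library of pooled animals. The control table holds 2 libraries, separated by the ending of the cell barcode and called control library 1 and control library 2 here. The sources used here do not say which of them is the saline and which the normal-diet control.

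Trim30a encodes a tripartite motif protein of a mouse gene cluster that interferon induces, and in mouse macrophages it restrains NF-kB signalling downstream of Toll-like receptors by driving loss of the adaptors Tab2 and Tab3. Pck1 encodes the cytosolic phosphoenolpyruvate carboxykinase, which makes phosphoenolpyruvate from oxaloacetate and sets the pace of gluconeogenesis. In kidney Pck1 belongs to the proximal tubule, where it is also tied to ammonia production from glutamine and responds to acidosis, glucocorticoids and cyclic AMP.

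In GRCm38, the assembly of mm10, Trim30a (ENSMUSG00000030921.17, protein coding) lies on the minus strand at chr7:104409025-104465193, and its longest transcript has 8 exons. It sits among relatives on the same strand, with Trim30d 4821 bp, Trim30c 8188 bp and Trim30b 39141 bp away. The treatment of reads that such copies share is not stated, so the Trim30a count may hold reads of a relative. The snRNA gene Gm25405 overlaps Trim30a on the other strand and is not listed in the tables. Pck1 (ENSMUSG00000027513.11, protein coding) lies on the plus strand at chr2:173153048-173159273, with 10 exons in its longest span and no overlapping gene.

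The 250 bases before each gene's start are shown because both genes have well-known inducers whose DNA elements can be looked for there, namely interferon for Trim30a and cyclic AMP for Pck1. Sequences are from RefSeq on GRCm38.p6, which matched both genes and gives Trim30a a second start. Each is printed 5′ to 3′ on the gene's own strand, and capitals mark a match to the core of the interferon-stimulated response element (GAAA, 2 bases of any kind, GAAA) in Trim30a, or to TGACGT, a part of the cyclic AMP response element, in Pck1. Both matches read on the strand opposite to the gene, and both strands were searched.
Trim30a, first start, chr7:104465194-104465443, minus strand: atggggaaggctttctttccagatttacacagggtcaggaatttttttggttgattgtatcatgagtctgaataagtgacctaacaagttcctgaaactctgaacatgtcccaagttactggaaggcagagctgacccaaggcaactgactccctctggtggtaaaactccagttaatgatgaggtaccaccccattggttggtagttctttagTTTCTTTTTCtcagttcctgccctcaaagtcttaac
Pck1, chr2:173152823-173153072, plus strand: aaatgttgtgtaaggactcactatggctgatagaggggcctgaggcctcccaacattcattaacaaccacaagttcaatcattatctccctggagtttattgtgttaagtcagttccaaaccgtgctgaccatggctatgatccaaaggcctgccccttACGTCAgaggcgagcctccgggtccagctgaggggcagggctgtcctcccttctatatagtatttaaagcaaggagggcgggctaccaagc

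The windows of the 2 Trim30a starts, each of 250 bases before and 50 bases after the start, aligned over 260 bases with 91.5% identity, and both hold the same match. The 30 bases around it are shown to compare them.
Trim30a, first start: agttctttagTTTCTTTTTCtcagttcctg
Trim30a, second start: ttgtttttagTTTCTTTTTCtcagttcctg
The match begins 36 bases before the first start and just after the second. In Pck1 the match begins 91 bases before RefSeq's start, which lies within the span of the gene given above. Of 32851 promoter windows of this length, 3.44% hold the interferon element core and 7.51% hold TGACGT. A match describes the letters only.

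The libraries held 2837 cells and 7479337 UMIs in A2 HTN and 3284 cells and 6471741 UMIs in SS HTN, against 2406 cells and 2801925 UMIs in control library 1 and 2008 cells and 1727731 UMIs in control library 2. A UMI, or unique molecular identifier, stands for 1 captured transcript. At most 2 cell barcodes were shared by any pair of libraries. Cells with at least 3 UMIs, and at least 12 per 10000, of Pecam1, Cdh5, Kdr and Tie1 together were called endothelial. This rule took 1225 A2 HTN cells (43.2%), 1519 SS HTN cells (46.3%), 19 cells of control library 1 (0.790%) and 126 cells of control library 2 (6.27%). A list of 10 other endothelial markers summed to 7335 to 15522 CPM (UMIs per 1000000) in the endothelial cells of the 4 libraries and to 1031 to 2539 CPM in all other cells. The 19 endothelial cells of control library 1 also held 4075 CPM of 11 proximal tubule markers, against 249 to 438 CPM in the endothelial cells of the other libraries. All intervals below are 95% intervals that cover counting error only, since each group is 1 library.

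Outside the endothelium, Trim30a was high in SS HTN and control library 1 and low in A2 HTN and control library 2, whichever model the controls belong to. Its level in other cells was 45.2 CPM in A2 HTN (36.0 to 55.9, from 84 UMIs) and 237 CPM in SS HTN (218 to 257, from 578 UMIs). The controls had 355 CPM in library 1 (333 to 378, from 973 UMIs) and 71.5 CPM in library 2 (58.1 to 87.2, from 98 UMIs). The 4 intervals do not overlap, and the order of the libraries crosses the hypertension and control labels. A log2 ratio here is that of CPM + 5, with the interval of the plain ratio. It was -2.27 for A2 HTN over SS HTN (-2.74 to -2.06), a level lower by more than 4-fold between the hypertension models. Control library 1 over control library 2 was 2.23 (2.01 to 2.63), nearly as wide as the difference between the models.

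Each hypertension library thus stood near 1 control and far from the other. The log2 ratio of Trim30a was -2.84 for A2 HTN over control library 1 (-3.31 to -2.65) and -0.61 for A2 HTN over control library 2 (-1.10 to -0.23). It was 1.66 for SS HTN over control library 2 (1.41 to 2.05) and -0.58 for SS HTN over control library 1 (-0.74 to -0.44). Which of these is the effect of a model cannot be told apart from a difference between the controls, since the control libraries are not matched to the models here.

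**Figure D1:**
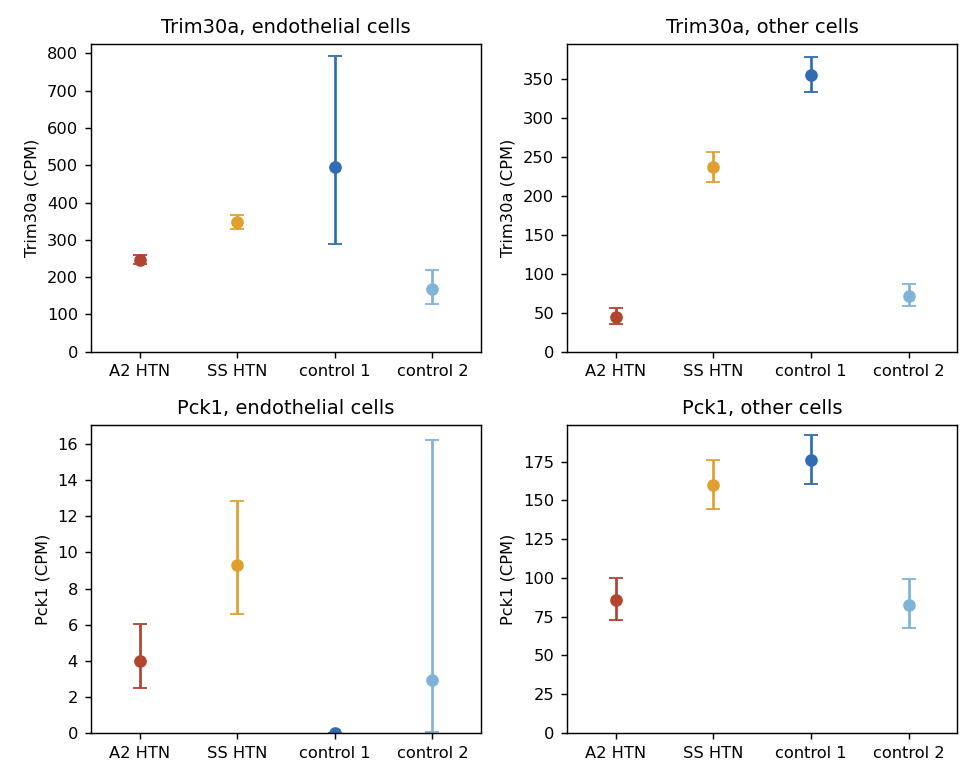
Level of each gene in CPM by library, for endothelial cells (left) and other cells (right). Points are the level of 1 library and bars the exact Poisson 95% interval, drawn only where at least 1 UMI was counted. In other cells both genes are higher in SS HTN and control library 1 (237 and 355 CPM for Trim30a) than in A2 HTN and control library 2 (45.2 and 71.5 CPM).

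The share of other cells with a Trim30a UMI set the same pairs of libraries apart. It was 4.90% in A2 HTN (3.90 to 6.07) and 24.6% in SS HTN (22.7 to 26.7), against 31.0% in control library 1 (29.2 to 32.9) and 4.52% in control library 2 (3.62 to 5.55). The other cells had a median depth of 855.5 UMIs in A2 HTN and 996 in SS HTN, against 962 in control library 1 and 531 in control library 2. With each cell thinned to 1000 UMIs the shares were 3.58% of 670 cells in A2 HTN and 15.0% of 880 in SS HTN, against 22.0% of 1137 in control library 1 and 5.52% of 326 in control library 2. The thinned shares still set the same libraries apart. Thinning left out shallower cells, 942 in A2 HTN and 885 in SS HTN, against 1250 in control library 1 and 1556 in control library 2. No cell outside the endothelium held more than 7 Trim30a UMIs, so the difference lay in many cells with 1 or a few UMIs and not in a few cells with many.

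Endothelial cells held more Trim30a than other cells in A2 HTN, SS HTN and control library 2, but split the libraries far less. Their level was 247 CPM in A2 HTN (234 to 261, from 1366 UMIs) and 348 CPM in SS HTN (330 to 367, from 1381 UMIs). The controls had 495 CPM in library 1 (288 to 792, from 17 UMIs) and 169 CPM in library 2 (128 to 219, from 58 UMIs). The order of the libraries was the same as in other cells apart from A2 HTN, which stood above control library 2 here, and the interval of control library 1 overlaps that of SS HTN. The log2 ratio of A2 HTN over SS HTN was -0.49 (-0.60 to -0.39), and that of control library 1 over control library 2 was 1.52 (0.68 to 2.35). The endothelial share with a UMI was 55.6% in A2 HTN and 53.5% in SS HTN, against 57.9% in control library 1 (33.5 to 79.7) and 33.3% in control library 2. Median depths were 4734 UMIs in A2 HTN and 2343 in SS HTN, against 1995 in control library 1 and 2809.5 in control library 2. Thinned to 1000 UMIs the shares were 19.9% in A2 HTN and 31.2% in SS HTN, against 25.0% in control library 1, from 16 cells, and 14.3% in control library 2.

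The contrast between endothelial and other cells within a library therefore differed widely for Trim30a. The log2 ratio of endothelial over other cells was 2.33 in A2 HTN (2.13 to 2.79), 0.55 in SS HTN (0.42 to 0.70), 0.47 in control library 1 (-0.31 to 1.17) and 1.19 in control library 2 (0.75 to 1.72). In the libraries with high Trim30a outside the endothelium this ratio, over cells of all depths, was small. Endothelial cells were still higher beyond counting error in SS HTN, and the direction was unresolved in control library 1. Among SS HTN cells with at least 2000 UMIs the level was 316 CPM in endothelial cells (296 to 336) and 95.6 CPM in other cells (78.2 to 116). In control library 1 it was 230 CPM (74.8 to 537, from 9 cells) and 139 CPM (112 to 170), with overlap. The difference between the log2 ratios of the libraries was not tested.

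Pck1 split the other cells of the libraries the same way, by a smaller factor. Its level in other cells was 85.5 CPM in A2 HTN (72.7 to 99.9, from 159 UMIs) and 160 CPM in SS HTN (144 to 176, from 390 UMIs). The controls had 176 CPM in library 1 (161 to 192, from 482 UMIs) and 82.5 CPM in library 2 (68.0 to 99.2, from 113 UMIs). The SS HTN and control library 1 intervals overlap each other, as do those of A2 HTN and control library 2, and the pairs do not overlap across. The log2 ratio was -0.86 for A2 HTN over SS HTN (-1.18 to -0.63) and 1.05 for control library 1 over control library 2 (0.79 to 1.40). Within the pairs it was 0.05 for A2 HTN over control library 2 (-0.31 to 0.41) and -0.14 for SS HTN over control library 1 (-0.34 to 0.06).

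The share of other cells with a Pck1 UMI was 8.62% in A2 HTN and 17.8% in SS HTN, against 17.1% in control library 1 and 5.53% in control library 2. Thinned to 1000 UMIs it was 8.96% in A2 HTN and 14.0% in SS HTN, against 15.0% in control library 1 and 9.82% in control library 2, a narrower split. Endothelial cells, a type that should lack Pck1, had a UMI in 1.71% of A2 HTN, 2.44% of SS HTN, 0 of 19 control library 1 and 0.794% of control library 2 cells, although these cells were deeper. Pck1 was thus above the endothelial share outside the endothelium in A2 HTN, SS HTN and control library 2. The 0 of 19 in control library 1 allows a share of up to 17.6%, which includes the 17.1% of its other cells.

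The endothelial level of Pck1 was 3.98 CPM in A2 HTN (22 UMIs) and 9.33 CPM in SS HTN (37 UMIs). The controls had 0 UMIs in library 1, which allows up to 107 CPM, and 1 UMI (2.91 CPM) in library 2. A split of Pck1 among endothelial cells was not detectable at this depth. The log2 ratio of A2 HTN over SS HTN there was -0.67, with an interval of -2.06 to -0.43 for the plain ratio.

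Because Pck1 marks the proximal tubule, its UMIs were set against those of 11 other proximal tubule markers in the same cells. Other cells held 10.1 Pck1 UMIs per 1000 proximal marker UMIs in A2 HTN (8.62 to 11.9) and 22.3 in SS HTN (20.1 to 24.7). The controls held 19.0 in library 1 (17.3 to 20.8) and 9.04 in library 2 (7.45 to 10.9). The marker list itself summed to 8427 CPM in A2 HTN and 7160 CPM in SS HTN, against 9258 CPM in control library 1 and 9121 CPM in control library 2. The Pck1 split was thus present relative to proximal tubule RNA as well as to all RNA.

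**Figure D2:**
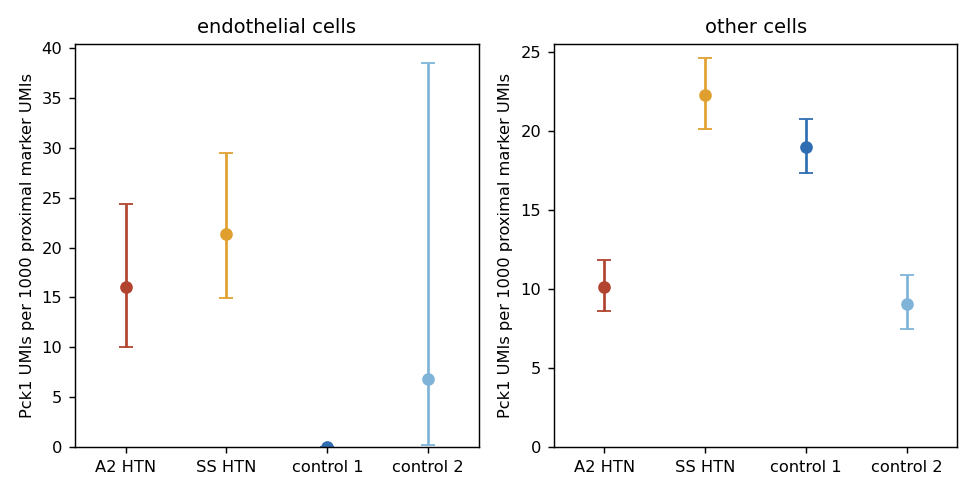
Pck1 UMIs per 1000 UMIs of 11 proximal tubule markers, by library, in endothelial cells (left) and other cells (right). Points are 1 library each and bars exact 95% intervals, drawn only where a Pck1 UMI was counted. In other cells SS HTN (22.3) and control library 1 (19.0) lie above A2 HTN (10.1) and control library 2 (9.04), without overlap.

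Among all genes the split was rare in other cells. Of 11049 genes, 3 (0.0272%) were at least 2-fold higher in both SS HTN and control library 1 than in either of A2 HTN and control library 2. These were Trim30a, the long non-coding transcript Gm11867 and Lrp1b, a large endocytic receptor of the LDL receptor family. The gap between the lower of the high libraries and the higher of the low ones was 1.66 (log2) for Trim30a, the widest of all genes, 1.54 for Gm11867 and 1.20 for Lrp1b. Pck1 stood at rank 5 with a gap of 0.86, inside the 2-fold limit. Aif1l, an actin-bundling protein, was next with 0.71. Since Trim30a and Pck1 were selected on this split, their ranks are a description.

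**Figure D3:**
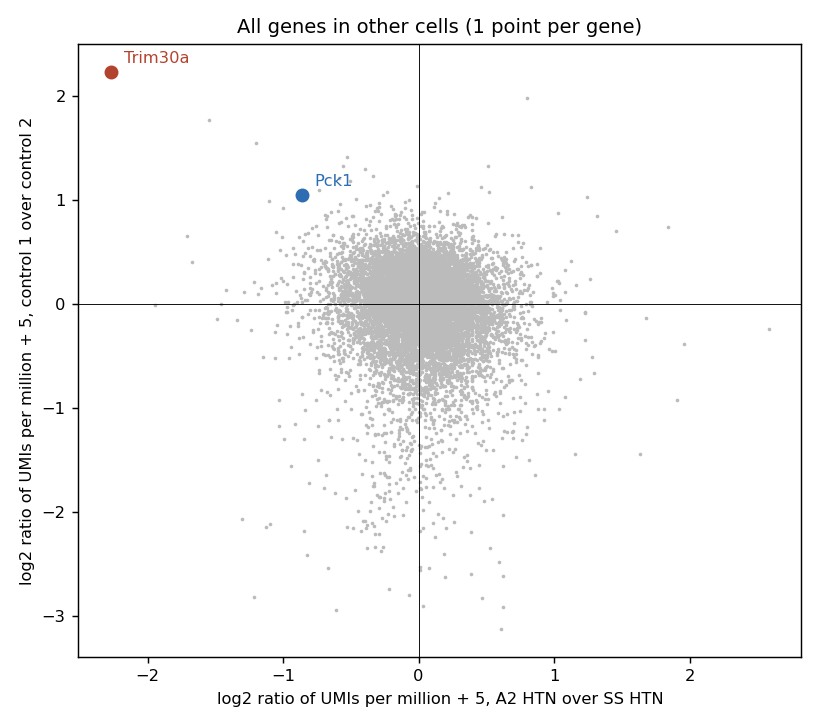
Each point is 1 of 11049 genes in other cells, with the log2 ratio (CPM + 5) of A2 HTN over SS HTN on the x axis and of control library 1 over control library 2 on the y axis. Trim30a, at -2.27 and 2.23, lies furthest toward the upper left corner. Gm11867 and Lrp1b, not labelled, also lie toward that corner, and Pck1 lies at -0.86 and 1.05 on the edge of the cloud.

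Single pairs of libraries give the same background. In other cells 35 genes (0.317%) were at least 2-fold lower in A2 HTN than in SS HTN, and Trim30a had the lowest ratio of all 11049 genes. At least 2-fold lower in A2 HTN than in control library 1 were 48 genes (0.434%), with Trim30a again the lowest and Pck1, at -0.999, just inside the limit. In SS HTN over control library 2, 166 genes (1.5%) were at least 2-fold higher, and Trim30a stood 24th from the top. In control library 1 over control library 2, 23 genes (0.208%) were at least 2-fold higher, Trim30a the most and Pck1 the 20th.

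In endothelial cells 76 of 10739 genes (0.708%) were split this way by 2-fold, and neither Trim30a, with a gap of 0.49 and rank 363, nor Pck1 was among them. The 6 widest were Hnf1aos1, Ptprj, Abi3bp, Efna5, Npnt and Gm11867, and control library 1 gave 2 to 13 UMIs of each from its 19 cells. Gm11867 was the only one of the 6 that was also past the limit in other cells, with 10.5 CPM in A2 HTN and 50.4 CPM in SS HTN endothelium, against 58.2 CPM (2 UMIs) in control library 1 and 5.83 CPM (2 UMIs) in control library 2.

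The level of Trim30a outside the endothelium varied with the depth of the cell in a way that separated the same libraries. This pattern was looked for after the values had been seen. In SS HTN the other cells held 0.393 Trim30a UMIs per cell below 500 UMIs (0.298 to 0.509), 0.314 from 500 to 1000, 0.350 from 1000 to 2000 and 0.296 at 2000 or more (0.242 to 0.358). In control library 1 the values were 0.414 (0.324 to 0.521), 0.437, 0.388 and 0.349 (0.283 to 0.427) over the same depths. In neither library did the deepest cells hold more Trim30a than the shallowest.

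In A2 HTN the other cells held 0.0146 Trim30a UMIs per cell below 500 UMIs (0.00302 to 0.0428), 0.0326 from 500 to 1000, 0.0468 from 1000 to 2000 and 0.175 at 2000 or more (0.122 to 0.243). In control library 2 the values were 0.0388 (0.0267 to 0.0545), 0.0326, 0.0779 and 0.280 (0.178 to 0.421). Here the deepest cells held most. The split was thus widest in shallow cells and nearly closed in deep ones.

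For most genes deeper cells held more UMIs. The ratio of UMIs per cell at 2000 or more UMIs to those below 500 had a median of 6.84 over 5853 genes in SS HTN and of 5.47 over 6140 genes in control library 1. For Trim30a it was 0.752 in SS HTN and 0.844 in control library 1, the lowest of all genes in each and the only value under 1. In A2 HTN the Trim30a ratio was 11.96, against a median of 6.49, and in control library 2 it was 7.22, against a median of 4.98, although its UMIs there fell short of the 100 required of the genes in the median. For Pck1 the ratio was 9.40 in A2 HTN and 5.12 in SS HTN, against 4.89 in control library 1 and 4.96 in control library 2, so the deepest cells held more Pck1 in all of them. Whether free RNA, which can reach every droplet alike, has a part in the Trim30a pattern was not tested.

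Among other cells with at least 2000 UMIs the split of Trim30a ended. Their level was 58.8 CPM in A2 HTN and 95.6 CPM in SS HTN. The controls had 139 CPM in library 1 and 101 CPM in library 2. The order of SS HTN and control library 2 was unresolved, with a log2 ratio of -0.074 (-0.74 to 0.64). A2 HTN was still below SS HTN, at -0.66 (-1.30 to -0.14). Among cells with fewer than 1000 UMIs the level was 44.0 CPM in A2 HTN and 481 CPM in SS HTN. The controls had 638 CPM in library 1 and 68.4 CPM in library 2, and the gap widened to 2.73 (log2). Pck1 kept its split at both depths, with a gap of 0.73 at 2000 or more UMIs and of 0.81 below 1000. By gap it ranked 74 of 10840 genes at 2000 or more UMIs, where 17 genes passed 2-fold and Pck1 did not. Below 1000 UMIs Pck1 ranked 16 of 10859. At 2000 or more UMIs its level was 92.4 CPM in A2 HTN and 171 CPM in SS HTN, against 157 CPM in control library 1 and 48.3 CPM (11 UMIs) in control library 2.

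**Figure D4:**
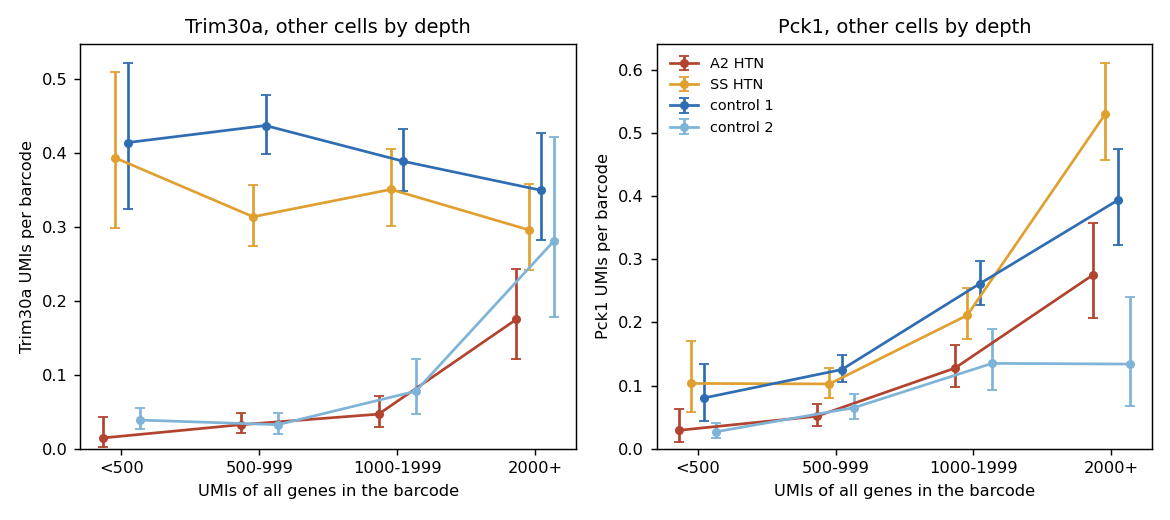
UMIs per cell of Trim30a (left) and Pck1 (right) in other cells, by the cell's total UMIs, with 1 line per library and exact Poisson 95% intervals. Trim30a is level with depth in SS HTN (0.393 to 0.296) and control library 1 (0.414 to 0.349) and higher in the deepest cells of A2 HTN (0.175) and control library 2 (0.280), while Pck1 is higher in the deepest than in the shallowest cells of each of the 4 libraries.

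Endothelial cells of A2 HTN and SS HTN were read by depth in the same way. In A2 HTN 3.85%, 12.7% and 59.0% of endothelial cells held a Trim30a UMI at 500 to 1000, 1000 to 2000 and at least 2000 UMIs, from 26, 55 and 1141 cells. In SS HTN 41.7%, 51.2% and 55.1% did, from 36, 453 and 1027 cells. In the deepest of these bins, which has no upper limit and holds deeper cells in A2 HTN, the level was 250 CPM in A2 HTN (237 to 264) and 316 CPM in SS HTN (296 to 336), without overlap. From 1000 to 2000 UMIs it was 105 CPM in A2 HTN (48.1 to 200) and 469 CPM in SS HTN (420 to 521). Control library 1 had too few endothelial cells to read by depth.

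Other cells were sorted by whether a cell held proximal markers, distal and collecting duct markers, both or neither. In every kind the Trim30a level was higher in SS HTN and control library 1 than in A2 HTN and control library 2. Among cells with proximal markers only, Trim30a was at 30.6 CPM in A2 HTN and 399 CPM in SS HTN, against 630 CPM in control library 1 and 48.7 CPM in control library 2. Among cells with both kinds it was 44.0 CPM in A2 HTN and 150 CPM in SS HTN, against 296 CPM in control library 1 and 58.2 CPM in control library 2. Among cells with neither it was 90.6 CPM in A2 HTN and 495 CPM in SS HTN, against 592 CPM in control library 1 and 141 CPM in control library 2. Among cells with distal markers only it was 90.6 CPM in A2 HTN (3 UMIs) and 430 CPM in SS HTN (14 UMIs). The controls there had 660 CPM in library 1 and 97.5 CPM in library 2 (4 UMIs). The interval of SS HTN (235 to 722) overlaps those of A2 HTN (18.7 to 265) and control library 2 (26.6 to 250). Within SS HTN, and within control library 1, the intervals of these kinds and of cells with distal markers only overlap, apart from those of cells with both kinds, which were deeper and lower.

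Pck1 was highest in cells with proximal markers. Cells with proximal markers only had 77.3 CPM in A2 HTN and 160 CPM in SS HTN, against 212 CPM in control library 1 and 106 CPM in control library 2. Cells with proximal and distal markers had 107 CPM in A2 HTN and 186 CPM in SS HTN, against 173 CPM in control library 1 and 93.1 CPM in control library 2. Cells with distal markers only had 30.2 CPM in A2 HTN (1 UMI) and 61.4 CPM in SS HTN (2 UMIs). The controls there had 159 CPM in library 1 (7 UMIs, 64.0 to 328) and 0 UMIs in library 2, which allows up to 89.9 CPM. In control library 1 that interval includes the levels of its proximal cells. Cells with neither kind of marker had 23.8 CPM in A2 HTN and 35.4 CPM in SS HTN, against 80.7 CPM in control library 1 and 27.5 CPM in control library 2, from 5 to 12 UMIs in each library. The pairs of libraries did not overlap in cells with both kinds of marker. In cells with proximal markers only the interval of SS HTN (121 to 209) overlaps that of control library 2 (78.5 to 139), and in cells with neither kind a split was not detectable.

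**Figure D5:**
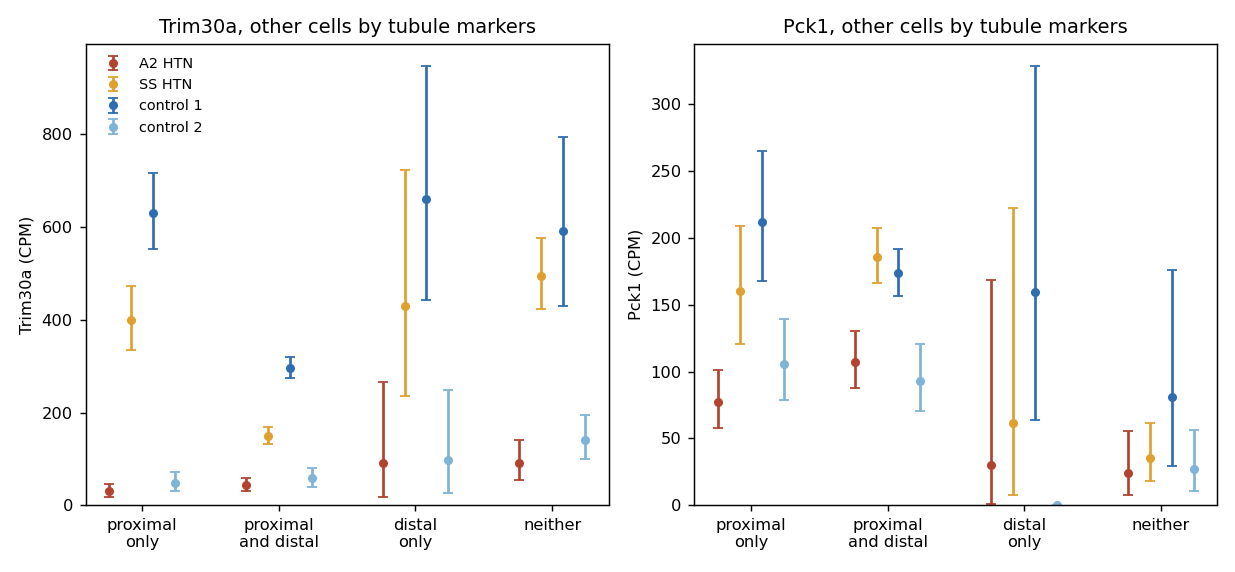
Level in CPM of Trim30a (left) and Pck1 (right) in other cells sorted by tubule markers, with 1 point per library and exact Poisson 95% intervals, drawn only where a UMI was counted. Trim30a separates SS HTN and control library 1 from A2 HTN and control library 2 among cells with proximal markers only (399 and 630 against 30.6 and 48.7 CPM) and among cells with neither kind (495 and 592 against 90.6 and 141 CPM). Pck1 in cells with neither kind lies between 23.8 and 80.7 CPM.

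Cells with both Trim30a and Pck1 were about as many as the separate shares give. Among other cells there were 7 in A2 HTN (6.81 from the shares) and 78 in SS HTN (77.4), against 142 in control library 1 (127) and 5 in control library 2 (4.70). Thus the genes split the same libraries without keeping to the same cells.

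In other cells the marker lists of other cell types were ordered differently from Trim30a. Endothelial markers outside the rule summed, in other cells, to 2539 CPM in A2 HTN and 2530 CPM in SS HTN, against 1031 CPM in control library 1 and 1110 CPM in control library 2, with both hypertension libraries above both controls. Distal and collecting duct markers summed there to 2587 CPM in A2 HTN and 3519 CPM in SS HTN, against 4839 CPM in control library 1 and 4165 CPM in control library 2. In endothelial cells tubule markers were highest in control library 1, and SS HTN was near control library 2. Proximal markers summed there to 249 CPM in A2 HTN and 438 CPM in SS HTN, against 4075 CPM in control library 1 and 428 CPM in control library 2. Distal markers summed there to 111 CPM in A2 HTN and 226 CPM in SS HTN, against 2998 CPM in control library 1 and 204 CPM in control library 2. Their part in the endothelial Trim30a levels was not tested. Leukocyte markers, of which 7 of 12 are listed, summed in other cells to 489 CPM in A2 HTN and 515 CPM in SS HTN, against 507 CPM in control library 1 and 2837 CPM in control library 2. The part of leukocyte RNA in the Trim30a levels was not tested.

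Interferon-induced genes were read as a group because Trim30a is one in mouse. Of 40, 33 are listed. In other cells 0 of the 33 split the libraries as Trim30a did by 2-fold, against 0.0272% of all genes, and 3 split the pairs at all, against 16.6% of all genes. In endothelial cells 0 of the 33 passed 2-fold, against 0.708% of all genes. There 1 of the 33, Ifi27l2a, split the pairs at all, against 21.2% of all genes. This gene, named here after its values were seen, had a gap of 0.83, wider than the 0.49 of Trim30a. It had 204 CPM in A2 HTN and 367 CPM in SS HTN, against 407 CPM (14 UMIs) in control library 1 and 90.4 CPM in control library 2. In other cells its gap was -1.37, with control library 1 the lowest. The median difference of the 33 genes between the pairs was -0.22 (log2) in other cells and -0.74 in endothelial cells. Over all genes tested it was 0.00 and -0.02. In other cells the list did not mirror Trim30a, since both hypertension libraries stood above both controls. It summed there to 1989 CPM in A2 HTN and 1762 CPM in SS HTN, against 704 CPM in control library 1 and 1151 CPM in control library 2. In endothelial cells the 10 endothelial markers outside the rule had a median difference of -0.72, near that of the list, and control library 1 gave only 19 cells. The difference of the list between the pairs was not tested. A list of 8 other Trim genes held Trim14, Trim25, Trim26, Trim56, Trim47, Trim8, Trim27 and Trim28. Whether interferon induces each of them was not tested. In other cells 1 of the 8, Trim8, split the pairs at all, against 16.6% of all genes. Their summed level there was 389 CPM in A2 HTN and 407 CPM in SS HTN, against 405 CPM in control library 1 and 366 CPM in control library 2.

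Of 13 genes of the Trim30 family and its neighbours 6 are listed. Trim30a, which was selected on its split, alone of the 6 was past 2-fold in other cells, where 0.0272% of all genes were. There 3 of the 6 split the pairs at all, against 16.6% of all genes: Trim30a, Trim12a (gap 0.18) and Trim12c (0.06). In endothelial cells 3 of the 6 did, against 21.2% of all genes: Trim30a, Trim30d (gap 0.10) and Trim12c (0.16). These counts include Trim30a by selection, so only the relatives in them describe the family. Trim30d, its nearest relative on the chromosome, was at 13.4 CPM in A2 HTN and 12.3 CPM in SS HTN, against 10.9 CPM in control library 1 and 18.2 CPM in control library 2, in other cells. Trim12a was at 39.8 CPM in A2 HTN and 48.7 CPM in SS HTN, against 45.6 CPM in control library 1 and 39.4 CPM in control library 2. Trim12c was at 41.9 CPM in A2 HTN and 56.5 CPM in SS HTN, against 43.8 CPM in control library 1 and 20.4 CPM in control library 2. Trim34a and Trim3 had gaps of -0.28 and -0.12 (log2), which means that the pairs overlapped. Of 12 genes of the pathway that Trim30a acts on in mouse macrophages 9 are listed, and 2 split the pairs at all in other cells, against 16.6% of all genes.

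The other genes of gluconeogenesis were read beside Pck1. Of 19 genes 18 are listed. Besides Pck1, which was selected on its split, only G6pc split the pairs at all in other cells (16.6% of all genes did). The list's median difference, with Pck1 included, was -0.10, against 0.00 over all genes. G6pc, the catalytic subunit of glucose-6-phosphatase, had a gap of 0.26. Its level was 169 CPM in A2 HTN and 204 CPM in SS HTN, against 268 CPM in control library 1 and 127 CPM in control library 2. Pck2, the mitochondrial form of the enzyme, had a gap of -0.33, and Fbp1, which makes fructose 6-phosphate from its bisphosphate, one of -0.37. Of 11 listed regulators of Pck1, among them Hnf4a, a proximal tubule transcription factor with a gap of -0.03, 1 split the pairs at all in other cells, as did 2 of 7 ammonia and acid handling genes, 1 of 7 fasting genes and 1 of 11 clock genes. These counts are near or below the 16.6% of all genes, apart from the ammonia list, and say nothing particular to a list of this size. The Y-linked genes Ddx3y, Eif2s3y, Uty and Kdm5d were present in all 4 libraries.

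By likeness over 8 values (the log2 level in 4 libraries and 2 cell sets, centred within each set), taken over 604 candidate genes, Trim30a was most like Gm11867 (Pearson r 0.86), Egr1 (0.82), Slc25a25 (0.81), Pir (0.81), BC065397 (0.78) and Gm20400 (0.77). Among the genes most like Pck1 were Lrp1b (0.93), Zfp951 (0.92), Myzap (0.87), Il1rapl1 (0.85) and Plce1 (0.84). Between Trim30a and Pck1 r was 0.49. The points share 4 libraries, and control library 1 adds only 19 endothelial cells, so these values only rank likeness.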

How the data were processed

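The authors deposited raw UMI counts as whole numbers. Cell Ranger 7.0.0, Seurat 4.1 and mm10 are named, with no step stated, per the submitters' processing notes. Of 4 tables, the 3 library tables were used, and the table that joins both hypertension libraries was an alternative. The members, lists and tests were chosen with earlier results of these data known. Cells were sorted with the endothelial rule, and UMIs were summed per library and cell set and scaled to 1000000 over 11049 genes (CPM). Ratios add 5 CPM, and intervals are exact Poisson, binomial and conditional binomial ones for counting error only. Genes tested had 20 or more UMIs. For a count of 0 the upper limit of the exact interval is given. Doublets were not removed. Thinning drew 1000 UMIs per cell. The named genes were the members, the 6 genes most like each, the 6 widest splits per cell set, and the largest or all members of 15 lists. Nnt and Xist are not analysed here. A gene that the naming rule picked is not reported here. The alternatives were all genes in the totals, thinning, stricter or purer cell sets, the joined table, no deepest 5% of cells, pseudocount 1, other limits for the split and, added after seeing the data, cells by depth. Positions and promoters came from GENCODE M21 and RefSeq. Simulated counts with known folds were used to check the code, in Python 3.11.15 with numpy 2.4.6, pandas 2.3.3, scipy 1.17.1 and matplotlib 3.10.9.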

Additional observations from a re-analysis of the deposited data

Results flagged for a closer look

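Trim30a ran opposite ways in the 2 cell sets between A2 HTN and control library 2. The log2 ratio of A2 HTN over control library 2 was 0.54 in endothelial cells and -0.61 in other cells, and both intervals exclude 0 (0.17 to 0.95 and -1.10 to -0.23). Thinned to 1000 UMIs (-0.24 to 1.11 in endothelial and -1.56 to 0.30 in other cells) and with purer cell sets (-0.12 to 1.02 in endothelial and -1.03 to 0.05 in other cells) both intervals include 0. The difference between the cell sets was not tested, and it rests on 58 and 98 Trim30a UMIs in the endothelial and other cells of control library 2.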

How the results depend on the processing

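With 28 values or counts and 193 recomputed values, 156 stayed within counting error or 1.5-fold, 36 moved beyond it and 1 reversed. The reversal was Trim30a in other cells with at least 2000 UMIs, an alternative added after seeing the data. There SS HTN over control library 2 was -0.074 (-0.74 to 0.64). In the same cells Trim30a was -0.66 for A2 HTN over SS HTN, -1.17 for A2 HTN over control library 1 and 0.44 for control library 1 over control library 2. In those cells Pck1 was -0.73 for A2 HTN over control library 1, 0.87 for A2 HTN over control library 2, 0.12 for SS HTN over control library 1, 1.73 for SS HTN over control library 2 and 1.60 for control library 1 over control library 2. In other cells with fewer than 1000 UMIs Trim30a was -3.31 for A2 HTN over SS HTN, -3.71 for A2 HTN and -0.40 for SS HTN over control library 1, 2.73 for SS HTN over control library 2 and 3.13 between the controls. Thinned to 1000 UMIs, Trim30a in other cells was -2.63 for A2 HTN over control library 1, and Pck1 there was -0.58 for A2 HTN over SS HTN, -0.74 for A2 HTN over control library 1, 0.55 for SS HTN over control library 2 and 0.70 between the controls. In thinned endothelial cells A2 HTN over SS HTN was -0.77 for Trim30a and -0.066 for Pck1. With purer cell sets Trim30a in endothelial cells was -2.14 for A2 HTN and -1.61 for SS HTN over control library 1 and 2.55 between the controls, from 5 cells of control library 1, and in other cells SS HTN over control library 1 was -0.83. Without the deepest 5% of cells Trim30a in endothelial cells was -0.61 for A2 HTN over SS HTN. The 3 genes split in other cells were 0 at 4-fold, 5 with pseudocount 1, 17 in cells with at least 2000 UMIs and 5 in cells with fewer than 1000. Over all directions 84 genes were split in other cells, 0 at 4-fold and 129 in cells with at least 2000 UMIs. The 76 genes split in endothelial cells were 2 at 4-fold and 169 with pseudocount 1, and over all directions 217 were 4 at 4-fold, 142 with at least 100 UMIs and 631 with pseudocount 1. Causes were not tested. The endothelial values of control library 1 rest on 19 cells. No paired analysis was possible because each group is 1 library and no result comes from a test.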
